A study of Bos taurus with 24 samples.

Results

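CRISPLD1, SLC32A1, AFAP1L2, FAM131B, MATN3, MAPK13 and IGSF9B were 7 genes named for strong differences between Holstein and Angus dermal fibroblasts at 0, 2 and 8 h after lipopolysaccharide (LPS). They were taken by symbol from 27550 rows with a gene symbol among 59846 rows in each expression table, and each symbol had 1 row. The 7 genes were chosen by the measured differences between the breeds in these same libraries, so those differences are given as a description, with no test. The genes lay on 7 different chromosomes. CRISPLD1 and SLC32A1 were higher in Angus, and the other 5 genes were higher in Holstein. The name did not hold equally for all of them: in 6 genes every culture of one breed lay above every culture of the other at all 3 hours, while the breeds overlapped in MATN3 at each hour.

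The 7 genes have varied known roles. CRISPLD1 encodes a secreted protein with the cysteine-rich CAP fold, and MATN3 encodes matrilin-3, an oligomeric protein of cartilage matrix. MAPK13 is p38 delta, a kinase of the stress-activated p38 pathway that transmits signals from innate immune receptors, and AFAP1L2 is an adaptor protein that binds the kinase SRC. SLC32A1 is the vesicular transporter that loads GABA and glycine into synaptic vesicles of inhibitory neurons, and IGSF9B is an immunoglobulin-family adhesion protein of inhibitory synapses. Fibroblasts are the matrix-producing cells of the dermis and respond to LPS, the outer-membrane glycolipid of Gram-negative bacteria, through Toll-like receptor 4.

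Poly-A RNA was sequenced from 4 Holstein and 4 Angus cultures, each harvested at 0, 2 and 8 h of exposure to 100 ng/ml LPS, which gave 24 libraries. Each culture came from the shoulder skin of a different heifer, the heifers of both breeds were of the same age at biopsy, and the cultures had been frozen and revived together. A breed group was therefore 4 animals, with no genetic manipulation, and lysates of duplicate wells were pooled before extraction. The 0 h libraries of a breed had not been exposed to LPS.

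The tables held 51014538 to 104406293 counts per library. For a library this depth sets a floor of 3 counts at 0.0287 to 0.0588 CPM (counts relative to the library total). Levels below are CPM after trimmed mean of M-values (TMM) scaling, and a row covers a gene from start to end, introns included, so levels were not compared between genes. In 4 libraries (Angus 4 and Holstein 2 and 4 at 0 h, Angus 3 at 2 h) the number of bases of depth per count in COL1A1, a collagen gene with deep coverage, was 66.2 to 67.1, against 111.8 to 119.0 in the other 20. Values without these libraries are given where they moved a fitted difference by over 1.5 times or changed a call or a count. The fibroblast markers were all found, and their levels summed to 37900 to 88400 CPM (Angus) and 61700 to 125000 CPM (Holstein).

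At 0 h 5 of the 7 genes passed the filter of 1 CPM in at least 50% of the 8 libraries, at 2 h 7 did, and at 8 h 6 did. SLC32A1 and IGSF9B did not pass at 0 h, and IGSF9B did not pass at 8 h, because fewer than 4 libraries reached 1 CPM. All genes that passed met the call rule (FDR under 0.05, fold change of at least 2, average above 1 CPM), as the choice of genes fixed, where 3.83%, 4.46% and 3.25% of all rows tested met it at the 3 hours in order. Rows called higher in Holstein were 1.74%, 2.44% and 2.22% of those tested. Breeds did not overlap in 6 of the 7 genes at each hour. Among all rows tested the share without overlap was 17.3%, 24% and 20.4% at the 3 hours, and 6.79% of rows were without it at all of them. Because these are bulk cultures, fewer cells that express a gene and less RNA per cell cannot be told apart for any of the values that follow.

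**Figure D1:**
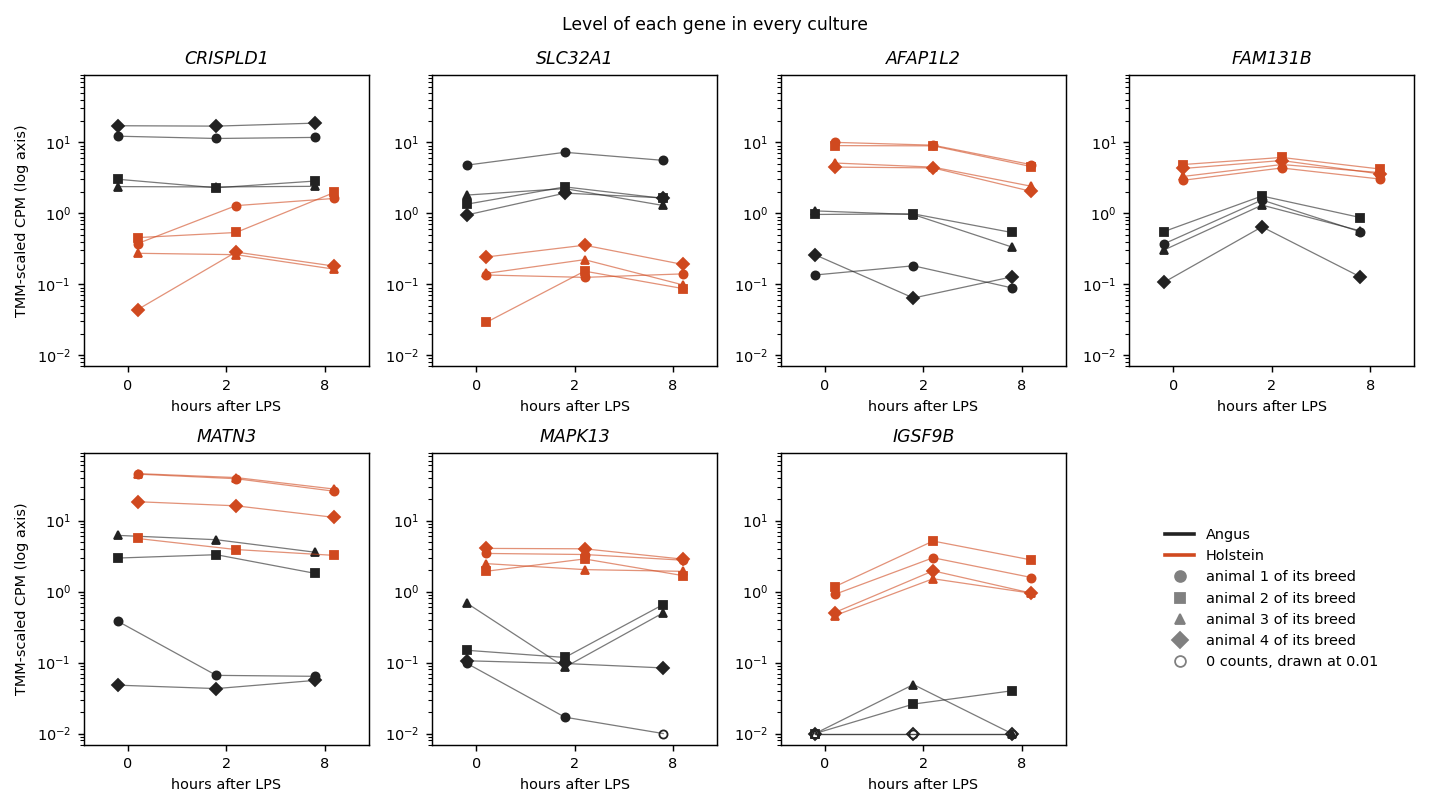
TMM-scaled CPM on a log axis against hours after LPS for the 7 genes, with 1 line per animal, black for Angus and orange for Holstein, and marker shapes for the 4 animals of a breed. The colours separate in 6 panels, and in the MATN3 panel Angus animal 3 lies above Holstein animal 2 at every hour.

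CRISPLD1 (chromosome 14, 40420996 to 40471465, plus strand, UMD v3.1) was higher in Angus, by the widest margin at 0 h. At 0 h the Angus cultures 1 to 4 had 12.2, 3.01, 2.38 and 17.1 CPM, and the Holstein cultures 1 to 4 had 0.374, 0.454, 0.273 and 0.0441 CPM. Angus 1 and 4 stood high and Angus 2 and 3 stood low, yet all 4 were above the Holstein cultures. The means were 8.67 ± 7.19 CPM in Angus and 0.286 ± 0.178 CPM in Holstein (SD, n = 4), 30.3-fold apart, and the fitted difference, Holstein minus Angus on the log2 scale, was -4.90 (SE 0.71).

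The gap in CRISPLD1 was narrowest at 8 h. Angus stayed near its 0 h levels, with 11.3, 2.29, 2.35 and 16.9 CPM at 2 h and 11.7, 2.84, 2.4 and 18.6 CPM at 8 h. In Holstein the values were 1.28, 0.536, 0.261 and 0.284 CPM at 2 h, and 1.62, 1.96, 0.163 and 0.180 CPM at 8 h. Holstein 1 and 2 thus ended 4.32-fold and 4.33-fold above their own 0 h level, Holstein 3 ended at 0.599 of it, and the ratio of 4.09 in Holstein 4 started from 2 counts. The lowest Angus culture lay 5.23-fold above the highest Holstein culture at 0 h, 1.79-fold at 2 h and 1.22-fold at 8 h. The fitted breed difference moved from -4.90 to -3.8 (SE 0.73) and -3.17 (SE 0.87) on the log2 scale, which is a description of the contrast that chose the gene. Without the libraries with fewer bases per count it was -4.17 at 0 h and -4.11 at 2 h. These fits left out Angus 4 and Holstein 2 and 4 at 0 h but Angus 3 at 2 h. Because the animals differ, they do not show whether the step between these hours rested on those libraries. None of those libraries was at 8 h. Leaving out 1 animal gave -3.17 (without Angus 4) and -4.51 (without Holstein 1) at 2 h, and -2.53 (without Angus 4) at 8 h. The Holstein reads were unevenly placed: in the 9 Holstein libraries with at least 20 counts, 8.2% to 70.0% of the counts covered the deepest base of the row, against 4.0% to 8.0% in the 12 Angus libraries. At 0 h Holstein 3 had 25 counts, of which 15 covered that base.

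SLC32A1 (chromosome 13, 68194866 to 68199775, plus strand) was the other gene that was higher in Angus. Angus cultures had 4.76, 1.34, 1.80 and 0.944 CPM at 0 h, 7.23, 2.35, 2.23 and 1.92 CPM at 2 h, and 5.56, 1.62, 1.29 and 1.65 CPM at 8 h. Holstein cultures had 0.135, 0.0293, 0.142 and 0.242 CPM at 0 h, 0.125, 0.153, 0.222 and 0.355 CPM at 2 h, and 0.140, 0.087, 0.098 and 0.190 CPM at 8 h. Angus 1 was the highest at each hour and the other 3 Angus cultures were close together. The highest Holstein library held 25 counts and the lowest held 2.

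Angus means of SLC32A1 exceeded Holstein means 16.1-fold at 0 h (2.21 ± 1.73 against 0.137 ± 0.087 CPM, SD, n = 4), 16-fold at 2 h (3.43 ± 2.54 against 0.214 ± 0.102 CPM) and 19.6-fold at 8 h (2.53 ± 2.03 against 0.129 ± 0.047 CPM). The lowest Angus culture lay 3.89-fold, 5.41-fold and 6.77-fold above the highest Holstein culture at the 3 hours. At 0 h these were Angus 4 (0.944 CPM) and Holstein 4 (0.242 CPM), both libraries with fewer bases per count. Without such libraries the lowest Angus culture at 0 h had 1.34 CPM and the highest Holstein culture 0.142 CPM. They set both ends of the gap, so leaving them out could only widen it. Holstein 4 was also the highest Holstein culture at 2 and 8 h, where no Holstein library had fewer bases per count. Whether the smaller gap at 0 h came from the libraries or the animals was not tested. The fitted differences at the hours where the gene passed the filter were -3.99 (SE 0.52) at 2 h and -4.26 (SE 0.54) at 8 h on the log2 scale. At 0 h only 3 libraries reached 1 CPM and the gene did not pass. The 0 h difference was -4.03 in the fit without the filter. It was -4.23 without the libraries with fewer bases per count.

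IGSF9B (chromosome 29, 33679906 to 33702558, plus strand) was close to absent from Angus libraries. All 4 Angus cultures had 0 counts at 0 h, the counts at 2 h were 0, 2, 4 and 0, and those at 8 h were 0, 3, 1 and 0. Holstein cultures had 0.913, 1.17, 0.458 and 0.507 CPM at 0 h, 2.99, 5.15, 1.52 and 1.96 CPM at 2 h, and 1.58, 2.78, 0.947 and 0.950 CPM at 8 h. Every Holstein culture therefore had reads of this synaptic adhesion gene at every hour, 23 counts in the lowest library and 336 in the highest.

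Against a floor of 3 counts per Angus library, IGSF9B was at least 22.1-fold higher in Holstein at 0 h. The ratio of Holstein to Angus counts scaled by library was 149 at 2 h (95% interval 67.9 to 406) and 119 at 8 h (46.1 to 438), and these exact intervals cover counting error only. Angus 3, a library with fewer bases per count, held 4 of the 6 Angus counts at 2 h, and without it the fitted log2 difference of IGSF9B at 2 h was 8.12 in place of 7.11. The Holstein level was highest at 2 h in all 4 cultures, at 3.28 to 4.40 times the 0 h level of the same culture, and stood at 1.73 to 2.38 times that level at 8 h.

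AFAP1L2 (chromosome 26, 35050365 to 35166042, minus strand) was higher in Holstein by a nearly constant factor. Holstein cultures had 9.97, 8.97, 5.10 and 4.47 CPM at 0 h, 9.11, 8.90, 4.47 and 4.36 CPM at 2 h, and 4.83, 4.54, 2.40 and 2.03 CPM at 8 h. Angus cultures had 0.135, 0.962, 1.08 and 0.260 CPM at 0 h, 0.182, 0.980, 0.959 and 0.0644 CPM at 2 h, and 0.0893, 0.536, 0.335 and 0.127 CPM at 8 h. Both breeds fell together by 8 h, and the breeds stayed apart, with the lowest Holstein culture 4.14-fold, 4.45-fold and 3.79-fold above the highest Angus culture. Holstein cultures averaged 7.13 ± 2.75, 6.71 ± 2.65 and 3.45 ± 1.44 CPM, and Angus cultures averaged 0.609 ± 0.480, 0.546 ± 0.491 and 0.272 ± 0.207 CPM (SD, n = 4), ratios of 11.7, 12.3 and 12.7. The fitted differences were 3.54 (SE 0.58), 3.6 (SE 0.70) and 3.66 (SE 0.53) on the log2 scale.

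MAPK13 (chromosome 23, 10036687 to 10045047, plus strand) was higher in Holstein at every hour. Holstein cultures had 3.44, 1.93, 2.47 and 4.05 CPM at 0 h, 3.33, 2.88, 2.04 and 4.00 CPM at 2 h, and 2.77, 1.68, 1.93 and 2.86 CPM at 8 h. Angus cultures had 0.0983, 0.149, 0.691 and 0.106 CPM at 0 h, 0.0165, 0.118, 0.0861 and 0.0966 CPM at 2 h, and 0, 0.657, 0.502 and 0.0844 CPM at 8 h. The Angus values rested on 0 to 64 counts per library, and Angus 3 went from 64 counts at 0 h to 7 at 2 h and 48 at 8 h. At 0, 2 and 8 h the Holstein means of this p38 kinase were 2.98 ± 0.95, 3.06 ± 0.82 and 2.31 ± 0.59 CPM (SD, n = 4). The Holstein to Angus ratio of means went from 11.4 (0 h) to 38.7 (2 h) and 7.43 (8 h), a spread set by the Angus means of 0.261 ± 0.288, 0.0792 ± 0.0438 and 0.311 ± 0.318 CPM. The fitted differences were 3.50 (SE 0.59), 5.18 (SE 0.40) and 2.88 (SE 0.87) on the log2 scale. The MAPK13 difference was 4.64 at 0 h without Angus 3 and 3.54 at 8 h without Angus 2.

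FAM131B (chromosome 4, 107559654 to 107567847, minus strand) encodes a protein of the FAM131 family, and its breed difference was smallest at 2 h. Holstein cultures had 2.92, 4.86, 3.30 and 4.27 CPM at 0 h, 4.34, 6.11, 4.86 and 5.54 CPM at 2 h, and 3.04, 4.20, 3.74 and 3.58 CPM at 8 h. Angus cultures had 0.369, 0.550, 0.302 and 0.106 CPM at 0 h, 1.54, 1.75, 1.30 and 0.644 CPM at 2 h, and 0.548, 0.871, 0.565 and 0.127 CPM at 8 h. Levels peaked at 2 h in all 8 cultures, by 3.19 to 6.08-fold over the same animal at 0 h in Angus and by 1.26 to 1.49-fold in Holstein. The Angus levels at 0 h rested on 11 to 48 counts. The ratio of 6.08 was that of Angus 4, whose 0 h library had 11 counts and fewer bases per count. The Holstein to Angus ratio of means went from 11.6 at 0 h (3.84 ± 0.89 against 0.332 ± 0.183 CPM) to 3.98 at 2 h (5.21 ± 0.77 against 1.31 ± 0.48 CPM) and 6.90 at 8 h (3.64 ± 0.48 against 0.528 ± 0.306 CPM). On the log2 scale the fitted differences were 3.54 (SE 0.40), 1.99 (SE 0.30) and 2.78 (SE 0.42). Whether the change after LPS differed between the breeds was not tested, because it is built from the contrasts that chose the gene.

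MATN3 (chromosome 11, 78888896 to 78907349, plus strand) was higher in Holstein on average, with wide variation between animals of both breeds. Holstein cultures had 45.1, 5.59, 45.9 and 18.4 CPM at 0 h, 38.9, 3.91, 40.4 and 16.1 CPM at 2 h, and 25.9, 3.23, 27.8 and 11.1 CPM at 8 h. Angus cultures had 0.381, 2.97, 6.19 and 0.0481 CPM at 0 h, 0.0661, 3.31, 5.37 and 0.0429 CPM at 2 h, and 0.0638, 1.81, 3.59 and 0.0563 CPM at 8 h. Angus 3 was above Holstein 2 at each hour, while Angus 4 had 4 or 5 counts per library. The means of this cartilage matrix gene were 28.75 ± 20.03, 24.8 ± 17.8 and 17.0 ± 11.8 CPM for Holstein, and for Angus they were 2.4 ± 2.84, 2.20 ± 2.61 and 1.38 ± 1.69 CPM (SD, n = 4), ratios of 12, 11.3 and 12.3. The fitted differences were 3.58 (SE 1.04), 3.49 (SE 1.18) and 3.62 (SE 1.09) on the log2 scale, the largest errors among the fitted genes. Without Angus 3, or without Holstein 2, the breeds did not overlap in MATN3, and 7 of the 7 genes were then free of overlap at each hour. At 0 and 2 h this also held without the libraries with fewer bases per count, which include Holstein 2 at 0 h and Angus 3 at 2 h, and no such library was at 8 h. Without Angus 3 the MATN3 differences were 4.66, 4.44 and 4.71.

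Angus 1 and 4 stood apart from Angus 2 and 3 in CRISPLD1, AFAP1L2 and MATN3, and on few counts in MAPK13 and IGSF9B, but not in SLC32A1 or FAM131B. Angus 1 and 4 had the higher CRISPLD1 levels, with means over the 3 hours of 11.7 and 17.5 CPM against 2.71 and 2.37 CPM in Angus 2 and 3. The order was the other way in AFAP1L2, with means of 0.136 and 0.150 CPM in Angus 1 and 4 against 0.826 and 0.791 CPM in Angus 2 and 3. MATN3 had the same order as AFAP1L2, with 0.170 and 0.0491 CPM in Angus 1 and 4 against 2.69 and 5.05 CPM in Angus 2 and 3. MAPK13 means also had this order, with 0.038 and 0.096 CPM against 0.308 and 0.426 CPM, but its levels at 2 h did not. IGSF9B had 0 counts in Angus 1 and 4 and 5 counts in each of Angus 2 and 3 over the 3 hours. In the Holstein animals AFAP1L2 was higher in 1 and 2, with means of 7.97 and 7.47 CPM, than in 3 and 4, with 3.99 and 3.62 CPM, an order that MATN3 did not share. In SLC32A1 the Angus means were 5.85, 1.77, 1.77 and 1.5 CPM, and in FAM131B they were 0.818, 1.06, 0.724 and 0.292 CPM.

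The change after LPS was tested with both breeds combined and a term for breed, a contrast that the choice of genes did not use (edgeR likelihood-ratio test on 16 libraries per comparison, Benjamini-Hochberg adjusted over all rows). Of the 7 genes, 5 passed the filter at 2 h against 0 h and at 8 h against 0 h, and 6 passed at 8 h against 2 h. FAM131B rose at 2 h and AFAP1L2 fell at 8 h, and no gene met the call rule at 8 h against 2 h. That is 1, 1 and 0 genes, where 2.93%, 1.58% and 2.89% of all rows tested met the rule in either direction. Rows called higher at 2 h were 2.12% and rows called lower at 8 h against 0 h were 0.412%. At 8 h against 2 h DESeq2 and the quasi-likelihood test also called 0, and 2 genes had an unadjusted p under 0.05.

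FAM131B rose by 1.17 on the log2 scale from 0 to 2 h (SE 0.31, adjusted p = 0.00172 in edgeR), with a rise in 8 of 8 animals. By 8 h it had fallen from its 2 h level by 0.89 on the log2 scale (SE 0.27, adjusted p = 0.00576 in edgeR), lower in 8 of 8 animals and under the 2-fold limit, where 32.6% of all rows passed FDR alone. AFAP1L2 fell by 1.11 on the log2 scale from 0 to 8 h (SE 0.41, adjusted p = 0.0392 in edgeR), with a fall in 8 of 8 animals: the Holstein cultures stood at 0.454 to 0.506 of their 0 h level and the Angus cultures at 0.310 to 0.660. This AFAP1L2 call was lost without Angus 3 (adjusted p = 0.105) and without any of Holstein 1 to 4 (0.0769 to 0.0815), with edgeR's quasi-likelihood test (0.0609) and without the filter (0.0646). With animal as a block, which pairs the hours of a culture, its edgeR adjusted p was 2.59e-22.

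MATN3 gave an edgeR adjusted p of 0.547 at 8 h against 0 h without the block, with a difference of -0.78 on the log2 scale (SE 0.80). With animal as a block the difference was again -0.78 (SE 0.07, adjusted p = 2.35e-28 in edgeR) and stayed under the 2-fold limit. Each Holstein culture stood at 0.574 to 0.605 of its own 0 h level of MATN3, and Angus 2 and 3 stood at 0.610 and 0.580. Angus 1 and 4, with 31 counts or fewer, gave 0.167 and 1.17. With the block and FDR alone, 2, 2 and 4 genes passed at the 3 comparisons, against 47.5%, 40.7% and 48.4% of all rows.

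**Figure D2:**
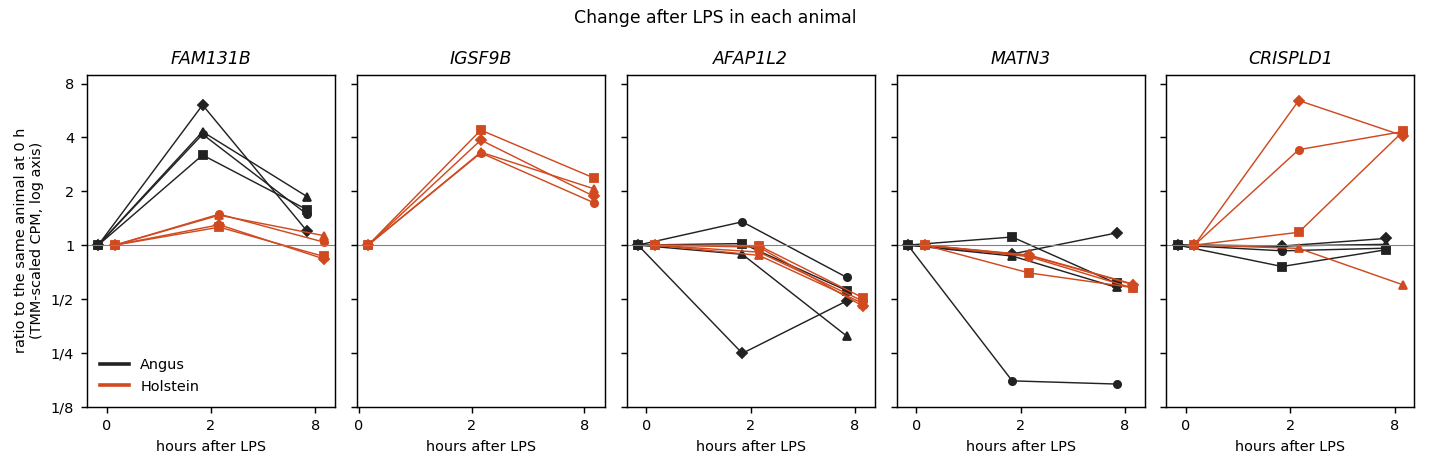
Ratio of TMM-scaled CPM to the same animal at 0 h, on a log axis, against hours after LPS for 5 genes, with 1 line per animal, black for Angus and orange for Holstein. At 2 h the 4 Angus animals reached 3.19 to 6.08 in FAM131B and the 4 Holstein animals 1.26 to 1.49. Angus lines for IGSF9B are left out because their 0 h counts were 0. The FAM131B and AFAP1L2 lines of Angus, the MATN3 lines of Angus 1 and 4 and the CRISPLD1 lines of Holstein rest on few counts.

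The other genes showed no LPS difference past the test in this fit. CRISPLD1 differences were 0.45 (SE 0.55, adjusted p = 0.621 in edgeR) at 2 h and 0.88 (SE 0.63, adjusted p = 0.374) at 8 h against 0 h on the log2 scale. MAPK13 gave -0.72 (SE 0.43, adjusted p = 0.230 in edgeR) and -0.07 (SE 0.55, adjusted p = 0.952). SLC32A1 passed the filter only at 8 h against 2 h, with -0.55 (SE 0.38, adjusted p = 0.282 in edgeR), and with the block -0.51 (SE 0.14, adjusted p = 6.14e-04), lower in 7 of 8 animals. Without the filter SLC32A1 at 2 h against 0 h gave 0.66 (SE 0.40, adjusted p = 0.349 in edgeR), and with the block as well 0.68 (SE 0.15, adjusted p = 1.22e-04), higher in 7 of 8 animals and under the 2-fold limit. IGSF9B passed in no LPS comparison. Without the filter its edgeR difference at 2 h against 0 h was 2.05 (SE 0.44, adjusted p = 6.66e-05) at an average of 0.904 CPM, below the 1 CPM limit of the call rule.

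Several rows beside the 7 genes also differed between the breeds, most of them in the direction of Holstein. For each gene the 3 nearest gene rows and the nearest row without a symbol on each side were taken, 56 rows in all, and none overlapped 1 of the 7 genes. Of those that passed the filter, 5 of 25 (20%) met the call rule at 0 h, 8 of 27 (29.6%) at 2 h and 6 of 26 (23.1%) at 8 h, beside 3.83%, 4.46% and 3.25% of all rows. By FDR alone 11, 13 and 14 rows passed, beside 13.8%, 20.1% and 16.5% of all rows. Their median log2 difference, Holstein minus Angus, was 0.55, 0.56 and 0.50, beside 0.00, -0.01 and 0.01 over all rows. Gene rows alone had medians of 0.35, 0.32 and 0.35. Of them 4 of 21 (19.0%), 5 of 22 (22.7%) and 4 of 21 (19.0%) met the call rule. Rows without a symbol directly adjoin 1 of the 7 genes. They had medians of 2.08, 2.08 and 2.83 over 4, 5 and 5 rows. Rows around the same gene share a locus and are not independent. The count of calls over all 56 rows was 3 at 0 h without the libraries with fewer bases per count. At 8 h it was 3 without Holstein 1, 3 without Holstein 3 and 2 without Holstein 4.

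**Figure D3:**
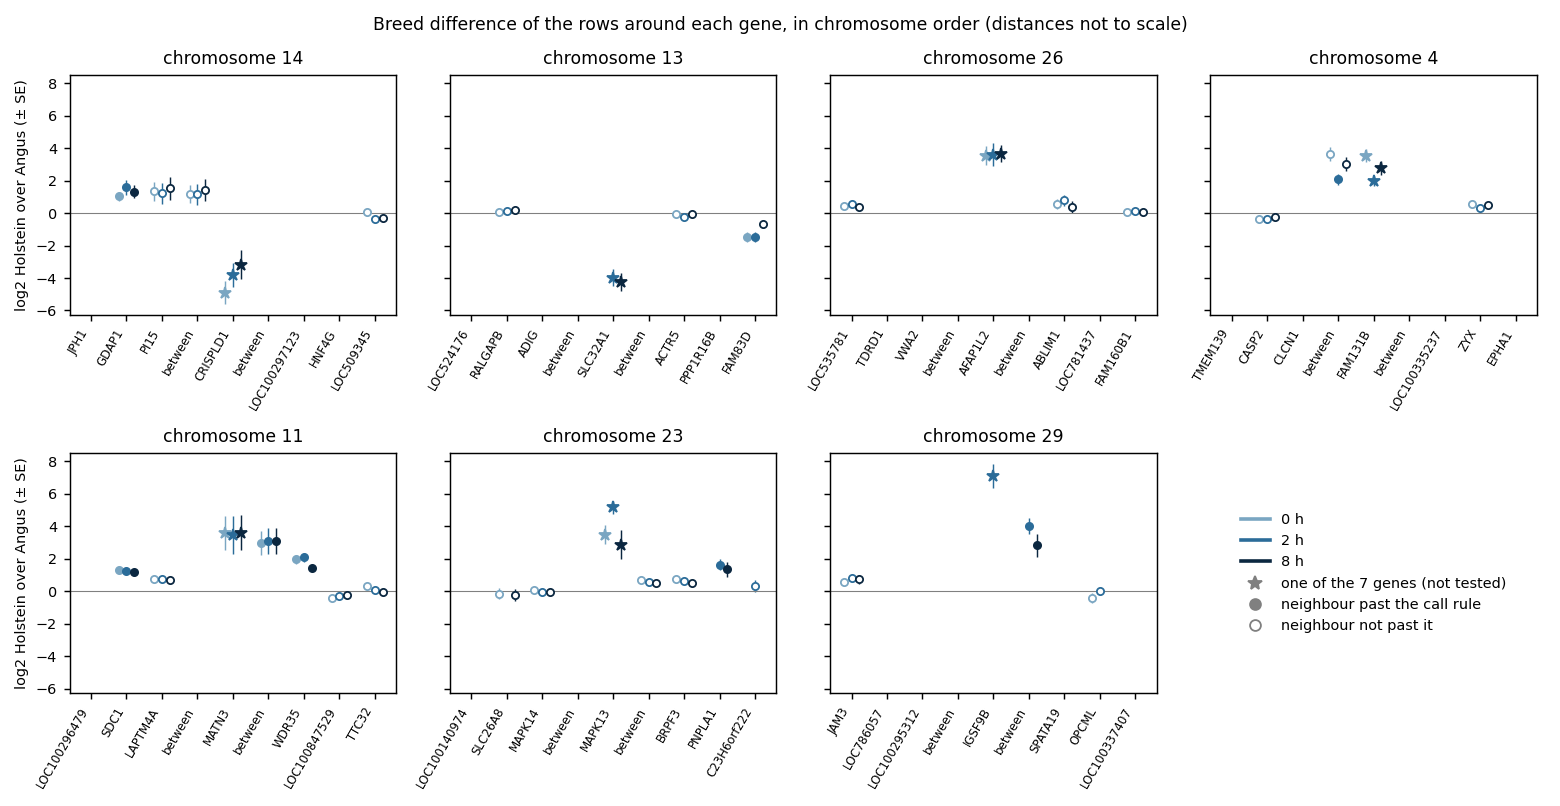
Log2 difference of Holstein over Angus with its standard error for the 7 genes (stars) and the rows around each in chromosome order, shaded by hour, with filled circles for neighbours past the call rule; rows without a point did not pass the filter. Called rows stand beside MATN3, CRISPLD1, SLC32A1, MAPK13, FAM131B and IGSF9B, and none beside AFAP1L2.

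Around MATN3 the breed difference extended to both sides. WDR35, a component of the transport machinery of cilia that starts 4991 bases from the end of MATN3 (chromosome 11, 78912340 to 78962421), had 30.7 ± 10.5 CPM in Angus and 120.1 ± 26.7 CPM in Holstein at 0 h (SD, n = 4), with no overlap between 17.9 to 41.7 and 93.6 to 157 CPM. Its log2 difference was 1.97 (SE 0.26, adjusted p = 2.45e-10 in edgeR) at 0 h, 2.09 at 2 h and 1.43 at 8 h, so the breeds were apart in WDR35 where they overlapped in MATN3. SDC1, the cell-surface proteoglycan syndecan-1, was higher in Holstein by 1.34 (SE 0.23), 1.28 and 1.17 on the log2 scale, where the Angus cultures spanned 24.1 to 52.5 CPM and the Holstein cultures 85.1 to 120 CPM at 0 h. Without Angus 4 the 8 h difference of SDC1 was 0.98 and under the 2-fold limit. The row that adjoins the 3' end of MATN3 (78907350 to 78912339) was higher by 2.98, 3.1 and 3.11. LAPTM4A, between SDC1 and MATN3, differed by 0.69 to 0.78 and stayed under the 2-fold limit. Beyond WDR35 the next gene rows did not pass: LOC100847529 differed by -0.39 to -0.22 and TTC32 by -0.02 to 0.35.

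Rows at the 3' end were also called beside FAM131B and IGSF9B. The row next to FAM131B (chromosome 4, 107554737 to 107559653) was higher in Holstein by 2.08 on the log2 scale at 2 h (SE 0.33, adjusted p = 8.22e-08 in edgeR), and at 0 and 8 h its differences of 3.63 and 3.03 had an average under 1 CPM. The row next to IGSF9B (chromosome 29, 33702559 to 33755351) was higher in Holstein by 4.04 (SE 0.48, adjusted p = 1.32e-11 in edgeR) at 2 h and 2.83 at 8 h, with means of 8.67 and 0.520 CPM at 2 h. Of the 3 intervals that were called, all 3 adjoin the annotated 3' end of 1 of the 7 genes and had the direction of that gene. Where the transcripts of these genes end was not tested.

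Neighbours of the other genes were mixed. GDAP1, a mitochondrial outer-membrane protein gene 644982 bases from CRISPLD1, was higher in Holstein by 1.03 (SE 0.28, adjusted p = 0.00506 in edgeR), 1.59 and 1.31 on the log2 scale, the opposite direction to CRISPLD1. PI15, another CAP protein gene and the nearest gene row to CRISPLD1, had differences of 1.33, 1.21 and 1.52 that did not pass (adjusted p = 0.138, 0.186 and 0.131 in edgeR). FAM83D, which encodes a spindle protein and lies 169154 bases from SLC32A1, was lower in Holstein, with log2 differences of -1.46 (SE 0.30, adjusted p = 1.18e-04 in edgeR) at 0 h and -1.48 at 2 h, while ACTR5, nearer to SLC32A1, differed by -0.05 to -0.27 and did not pass. PNPLA1, a lipid enzyme gene of the epidermis near MAPK13, was higher in Holstein by 1.63 at 2 h and 1.36 at 8 h. MAPK14, p38 alpha and the next gene row to MAPK13, differed by 0.06, -0.03 and -0.01 and did not pass. Without the libraries with fewer bases per count, the 0 h calls of GDAP1 (0.70, adjusted p = 0.385 in edgeR) and FAM83D (-1.0, adjusted p = 0.153) were lost. Leaving out 1 animal lost the 8 h call of PNPLA1 in 5 of 8 fits (Angus 1 or 4, Holstein 1, 3 or 4), the 0 h call of GDAP1 in 3 of 8 (Angus 1 or 4, Holstein 2) and its 8 h call in 2 of 8 (Angus 1, Holstein 4).

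Among genes related to the 7 by function, 62 of 66 listed genes were in the tables. Of those that passed the filter, 3 of 38 (7.89%) met the call rule between breeds at 0 h, 3 of 35 (8.57%) at 2 h and 4 of 37 (10.8%) at 8 h, each of them higher in Holstein, beside 1.74%, 2.44% and 2.22% of all rows in that direction. The median log2 difference of the lists was 0.16, 0.10 and 0.15. Without Angus 3 the counts at 0 and 2 h were 6 and 5, and at 0 h edgeR's quasi-likelihood test gave 1. Of the calls named next, leaving out 1 animal lost GLRB at 0 h (Angus 1 or 4, or Holstein 4), GLIPR1 at 8 h (Angus 1 or 4, or Holstein 3) and MAPK12 at 2 h (Holstein 4). Leaving out the libraries with fewer bases per count lost COL11A1 (1.53, adjusted p = 0.0546 in edgeR) and GLRB (1.39, adjusted p = 0.546) at 0 h.

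The cartilage matrix list held most of those calls, 2 of 6, 2 of 5 and 2 of 5 genes. ACAN, which encodes the proteoglycan aggrecan, spanned 5.04 to 27.6 CPM among Angus and 25.4 to 162 CPM among Holstein cultures at 0 h, ranges that overlapped as in MATN3, with differences of 2.56 (SE 0.65, adjusted p = 0.00385 in edgeR), 2.26 and 2.39 on the log2 scale. With the quasi-likelihood test of edgeR the adjusted p of ACAN was 0.0558, 0.0501 and 0.0477. COL11A1, a fibrillar collagen chain, spanned 182 to 554 CPM among Angus and 988 to 1544 CPM among Holstein cultures at 0 h and differed by 1.85 (SE 0.39, adjusted p = 2.10e-04 in edgeR), 1.82 and 1.81. MATN2, the matrilin expressed most widely outside cartilage, differed by 0.38 to 0.46 and did not pass. COL2A1, the defining cartilage collagen, differed by -0.39 to 0.34 and did not pass. Its lowest levels, 0.176 to 0.397 CPM, were in the 4 libraries with fewer bases per count. No such library was at 8 h, where it differed by 0.22. ACAN did not keep the order of MATN3 within Holstein: over the 3 hours Holstein 2 averaged 105 CPM of ACAN and 4.24 CPM of MATN3, and Holstein 3 averaged 38.2 CPM of ACAN and 38.01 CPM of MATN3. Within Angus both genes were low in Angus 1 and 4 and high in Angus 2 and 3. There ACAN averaged 7.11 and 5.54 CPM against 29.3 and 17.6 CPM. COL11A1 averaged 177 and 172 CPM against 524 and 513 CPM in the same Angus animals.

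In the inhibitory synapse list GLRB, the beta subunit of the glycine receptor, was the only called gene, higher in Holstein by 2.06 (SE 0.59, adjusted p = 0.0101 in edgeR) at 0 h and 2.20 at 8 h on the log2 scale. The genes GAD1 and GAD2, which make GABA, averaged 0.0207 and 0.0705 CPM for Angus, against 0.0134 and 0.0716 CPM for Holstein, at 2 h, close to the counting floor in both breeds. IGSF9, the nearest relative of IGSF9B, differed by -0.07 to 0.09 and did not pass. All 14 listed genes of the p38 pathway passed the filter, and MAPK12, p38 gamma, was the only gene called, at 2 h (1.14, SE 0.33, adjusted p = 0.00601 in edgeR). The upstream kinase MAP2K6 differed by -0.91 to -0.97 and did not pass, and MAP2K3 by -0.08 to 0.18. Of the CAP proteins GLIPR1 was called at 8 h (1.04, SE 0.31, adjusted p = 0.00916 in edgeR), and CRISPLD2, the closest relative of CRISPLD1, differed by 0.53 to 0.84 in the direction of Holstein, the other direction from CRISPLD1, and passed FDR at 2 h (adjusted p = 0.0248 in edgeR) and 8 h (0.00683) but not the 2-fold limit. In the AFAP1 list of 5 genes and the FAM131 list of 2 genes none met the call rule at any hour in edgeR's likelihood-ratio test, with 2, 0 and 2 and with 0, 1 and 0 genes past FDR alone. At an unadjusted p under 0.05 the counts were 2, 1 and 2 and 0, 1 and 0, and DESeq2 and the quasi-likelihood test also called 0.

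Markers of other cell types differed in level between lists and between animals. The 12 epithelial markers summed to 1.55 to 2.3 CPM in Angus libraries and to 1.98 to 2.97 CPM in those of Holstein 2, 3 and 4, while Holstein 1 had 21.2 to 26.5 CPM with KRT5 at 8.38 to 10.2 CPM. MAPK13 was at 2.77 to 3.44 CPM in Holstein 1. In Holstein 4 it was at 2.86 to 4.05 CPM, and the epithelial markers summed to 1.98 to 2.34 CPM. The part of epithelial cells in the MAPK13 values was not tested. Of 5 chondrocyte markers 4 were in the tables, with sums of 5.53 to 39.2 CPM (Angus) and 25 to 165 CPM (Holstein). ACAN made up most of that sum, and COMP and HAPLN1 were under 1 CPM everywhere. COL2A1 was at 0.176 to 2.44 CPM, lowest in the 4 libraries with fewer bases per count. The part of chondrocytes in the MATN3 values was not tested. The 4 Schwann cell markers summed to 2.33 to 6.92 CPM (Angus) and 4.59 to 7.89 CPM (Holstein). Melanocyte markers summed to 6.13 to 12.3 and 5.64 to 8.43 CPM. By hour these sums did not overlap at 0 h (10.3 to 11.4 against 5.86 to 7.93 CPM) or at 8 h. The melanocyte marker MITF was higher in Angus without overlap at each hour (6.96 to 9.3 against 4.36 to 4.49 CPM at 0 h). The fibroblast marker COL3A1 was higher in Holstein without overlap at each hour. Endothelial markers summed to 0.959 to 2.05 and 1.08 to 3.50 CPM, leukocyte markers to 3.29 to 5.17 and 1.99 to 5.61 CPM, and smooth muscle markers to 208 to 445 and 220 to 400 CPM. CNN1 made up most of the smooth muscle sums, and its breeds overlapped at each hour. MYH11 (16.5 to 19.0 CPM in Angus, 20.4 to 28.7 CPM in Holstein at 0 h) did not overlap at any hour. The share without overlap was 6.79% among rows tested at all 3 hours. DES did not overlap either, but its group means were only 0.0456 to 0.89 CPM. Its nearest values at 8 h were 0.402 CPM in Angus and 0.419 CPM in Holstein. RGS5 overlapped at 0 and 8 h. The part of such cells was not tested.

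The gene rows most like each gene over the 24 libraries, by Pearson r of log2(CPM + 1), are given as a description, since the libraries come from 8 animals and the 7 genes were chosen for their breed difference. For CRISPLD1 they were NLGN4Y (0.965), PEG10 (0.964) and MPZL1 (0.950), and for SLC32A1 they were SH3KBP1 (0.903), LOC100848103 (0.890) and ANKRD24 (0.884). AFAP1L2 was most like DMPK (0.954), WDR35 (0.954), the neighbour of MATN3, and LOC100848191 (0.945). FAM131B was most like COL4A1 (0.951) and COL4A2 (0.947), the paired collagen chains of basement membrane, and LOC100847602 (0.939). MATN3 was most like RASGRP2 (0.950) and the transcription factor genes LMX1B (0.929) and SOX5 (0.925), and IGSF9B like MYH11 (0.914), KLHL32 (0.882) and ISLR2 (0.882). The 3 rows most like MAPK13 all lay on chromosome 18: SPINT2 (0.955), HSPB6 (0.954) and CATSPERG (0.945), with SPINT2 at 5.66 to 11.6 CPM among Angus and 23.0 to 32.8 CPM among Holstein libraries.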

How the data were processed

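Base calls were made with CASAVA 1.7 per the labels. The authors aligned the filtered reads to UMD v3.1 with NextGENe 2.3.4 and deposited, for each library, raw read counts per row (a gene from start to end, or an interval without a symbol) and the coverage signal of a row, its highest and mean depth over bases. Whether counting used strand is not given in the sources used here. Here 92.88 to 96.54% of reads were matched. Rows at 1 CPM or more in at least 50% of the libraries compared were kept, and counts were TMM-scaled and tested with edgeR 4.0.16 (likelihood-ratio test, as in the study's methods) in R 4.3.3, with Benjamini-Hochberg adjustment over all rows. A row was called at FDR under 0.05, a fold change of at least 2 and an average above 1 CPM. Breeds were compared at each hour (8 libraries) and hours over both breeds with a breed term (16 libraries). DESeq2 1.42.0, edgeR's quasi-likelihood test, other scalings, no filter, animal as a block and each animal left out were alternatives. The scripts were tested on simulated data.

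The members and the lists of neighbours, related genes and markers were chosen with earlier results of these data known. Named were the 7 members, the neighbours and related genes called at 1 or more hours and, for each member, the 3 most correlated gene rows at 1 CPM in at least 50% of the 24 libraries. ACTR5, CRISPLD2, MAPK14, MATN2, COL2A1, LAPTM4A, LOC100847529, TTC32, PI15, IGSF9, MAP2K3, MAP2K6, GAD1, GAD2, MITF and COL3A1 were named after their values were seen. The same animal gave all 3 hours of a culture, so hours are paired: deviations from the group means correlated at 0.658, 0.619 and 0.611 on average within an animal (lowest 0.432) and at -0.202 to -0.218 between animals. Numbers across breeds name unrelated animals. Within groups, the 36 pairs of libraries differed well beyond sampling noise (lowest chi-square per degree of freedom 33.0).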

Additional observations from a re-analysis of the deposited data

Results flagged for a closer look

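Of 42 groups of 4 cultures (7 genes, 2 breeds, 3 hours), 3 held a culture far from the other 3 by Dixon's ratio, where chance gives about 1 in 20 groups. Angus 1 had 7.23 CPM of SLC32A1 at 2 h (ratio 0.919) and 5.56 CPM at 8 h (ratio 0.916), both the highest of the breed. Angus 3 had 0.691 CPM of MAPK13 at 0 h (ratio 0.915), the highest of the breed.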

How the results depend on the processing

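The Angus levels of IGSF9B, MAPK13, AFAP1L2 and FAM131B and the Holstein levels of CRISPLD1 and SLC32A1 rest on few counts, which limits ratios between breeds and between hours. Library totals in place of TMM moved the median breed difference of all rows by -0.099, 0.012 and -0.082 on the log2 scale at 0, 2 and 8 h. The count of genes without overlap between breeds ranged from 6 to 7 at each hour when 1 animal was left out. For single genes, 810 of 857 values kept direction and side of the threshold.

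Without a breed term the LPS calls at 2 h and at 8 h against 0 h were 0 and 0, and differences turned for CRISPLD1 at 2 h against 0 h (-0.04), FAM131B at 8 h against 0 h (-0.01) and MAPK13 at 8 h against 2 h (-0.26). MAPK13 at 8 h against 0 h ranged from -0.46 to 0.19 over the fits without 1 animal, the last without Angus 3. The 8 h against 0 h count was 0 without the filter and 0 with the quasi-likelihood test. Leaving out 1 animal gave 0 to 1 genes at 8 h against 0 h and 0 to 1 at 8 h against 2 h, where AFAP1L2 was called without Angus 4. Animal as a replicate block changed no call by the full rule (1, 1 and 0 genes). FDR alone with the block gave 2, 2 and 4, and FDR alone without it 1 at 8 h against 2 h. The no-filter fit with the block and FDR alone with the block were added after the data were seen.

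For neighbours, FDR alone gave 11, 13 and 14 rows at 0, 2 and 8 h, leaving out 1 animal gave 4 to 7, 6 to 11 and 2 to 7, and leaving out the libraries with fewer bases per count gave 3 at 0 h. For related genes FDR alone gave 8, 7 and 8, leaving out 1 animal gave 2 to 6, 2 to 5 and 3 to 6, the quasi-likelihood test gave 1 at 0 h, and leaving out the libraries with fewer bases per count gave 5 at 2 h. No library at 8 h had fewer bases per count. The cause of these moves was not tested.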
